A study of Mus musculus with 10 samples.

Results

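The genes described here encode the MHC class II antigen presentation apparatus: the classical chains H2-Aa, H2-Ab1 and H2-Eb1, the invariant chain Cd74, the peptide-loading genes H2-DMa, H2-DMb1 and H2-DMb2, the loading modulators H2-Oa and H2-Ob, and the transactivator Ciita. They were chosen by symbol, and where a symbol has several probe sets the brightest on average would stand for it. Of the 10 genes listed, 8 had a probe set annotated to them alone, among 19938 symbols on the array, and all 8 also lay above the filter on dim probe sets. H2-DMb1 and H2-DMb2 share a single probe set and so have no value of their own.

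RNA came from pre-B colonies sorted for B220 (CFU-PreB, B cell precursor colonies grown from bone marrow in methylcellulose) after 7 days. The marrow was taken from 5 Hspa9+/- mice, called heterozygous here, and 5 Hspa9+/+ littermates, called wild type, each cultured on its own and each measured on 1 Mouse Gene 1.0 ST array. Hspa9 encodes the mitochondrial chaperone mortalin. The labels give neither strain, age and sex nor the kind of Hspa9 allele, and B220 is also carried by plasmacytoid dendritic cells. Values are RMA log2 units, in which a step of 1 is a doubling, and a difference is the heterozygous mean less the wild type mean (n = 5 each).

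Class II molecules carry peptides from endosomes to the cell surface for recognition by CD4+ T cells. The alpha and beta chains assemble on the invariant chain, which blocks the groove and routes the complex to endosomes, where proteases trim it to a fragment. H2-DM exchanges that fragment for peptide, and H2-DO restrains the exchange. In the B lineage Ciita drives these genes together by joining the RFX, CREB and NF-Y factors bound to the X and Y boxes of their promoters, and surface class II increases as precursors mature.

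The targeted gene averaged 9.18 ± 0.244 in heterozygous and 9.92 ± 0.378 in wild type arrays (SD), a heterozygous level at 60.3% of wild type. B lineage markers were bright in both genotypes, with a list mean of 10.93 to 11.35 in heterozygous and 11.21 to 11.42 in wild type arrays over 9 genes. Heterozygous 2 and wild type 1 stood apart in macrophage markers, whose mean over 12 of 12 genes was 9.28 and 8.80 there, against 6.58 to 6.83 in the other heterozygous arrays and 5.24 to 7.17 in the other wild type arrays. Over 14953 genes tested, 0 passed the adjusted threshold of 0.05 (0% called), with 1650 at an unadjusted p under 0.05, and the median difference was 0.06. Array weights raised the number of calls to 137, and it was 22 without wild type 1 and 3 without heterozygous 2.

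All 8 measured members had a lower mean in heterozygous than in wild type cells, as did 38.7% of all genes, and none passed the limma test adjusted over all genes (smallest adjusted p = 0.226, for Cd74). Their differences ran from -0.74 to -0.09 with a median of -0.58, and 6 of 8 lay at or below -0.5, where 3.37% of all genes did. At an unadjusted p under 0.05, 5 of 8 were lower and 0 higher, against 4.25% of all genes lower and 6.79% higher. This count was 3 without wild type 5. The members were chosen with earlier results of these samples known, so the counts are not independent evidence. Several members also rose and fell together across arrays and are not 8 separate observations. In bulk RNA, fewer cells with class II transcripts and fewer transcripts per cell cannot be told apart.

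Cd74 had the smallest p of the members, as probe set 10456005. The invariant chain measured 10.36, 10.81, 10.58, 10.53 and 10.39 in heterozygous arrays 1 to 5, against 11.04, 11.69, 11.08, 11.06 and 11.49 in wild type arrays 1 to 5. The 2 genotypes did not overlap, and the highest heterozygous array stayed under the lowest wild type one. The difference was -0.74 (SE 0.15), which places heterozygous cells at 59.9% of wild type (95% interval 47.7 to 75.3%). It did not pass over all genes (adjusted p = 0.226), and the exact permutation test of this gene alone, over all 252 splits of the arrays, gave p = 0.00794, the smallest that test allows. With array weights it passed at -0.72 (adjusted p = 0.0312).

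The chains of the classical class II molecules were lower by a similar amount but overlapped between genotypes. H2-Ab1, the beta chain of I-A (probe set 10444291), measured 9.62, 10.35, 9.78, 9.75 and 9.87 in heterozygous arrays, against 10.09, 11.17, 10.38, 10.27 and 10.79 in wild type arrays. Only heterozygous 2 reached into the wild type range, and the difference was -0.67 (SE 0.21, adjusted p = 0.349, exact p = 0.0238 for this gene alone). H2-Aa, the alpha chain that pairs with it (probe set 10450154), measured 10.03, 10.85, 10.32, 9.90 and 10.05 in heterozygous arrays, against 10.56, 11.33, 10.39, 10.45 and 11.02 in wild type arrays. Here too only heterozygous 2 reached past the lowest wild type array, and the difference was -0.52 (SE 0.224, adjusted p = 0.443).

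H2-Eb1, the beta chain of I-E (probe set 10444298), measured 8.64, 9.53, 8.93, 8.59 and 8.66 in heterozygous arrays, against 9.04, 10.32, 9.10, 9.12 and 9.72 in wild type arrays. Its difference of -0.59 (SE 0.269) missed even the unadjusted threshold (limma p = 0.0502, adjusted p = 0.454, exact permutation p = 0.0873). Heterozygous 2 was again the only heterozygous array inside the wild type range. H2-Ea, the alpha chain that would pair with it, was dim in both genotypes at 3.88 to 4.37 in heterozygous and 4.10 to 4.62 in wild type arrays, and its mean over all arrays, 4.19, lay below the filter of 4.52. Without heterozygous 2 the genotypes of 5 members did not overlap, against 2 with it. For the classical chains this follows from leaving out their only overlapping heterozygous array, and the share of all genes was not counted. The differences without heterozygous 2 were -0.79 for H2-Ab1, -0.67 for H2-Aa and -0.76 for H2-Eb1. Without wild type 2, the highest array of the other genotype, they were -0.51, -0.37 and -0.38 in the same order of genes.

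**Figure D1:**
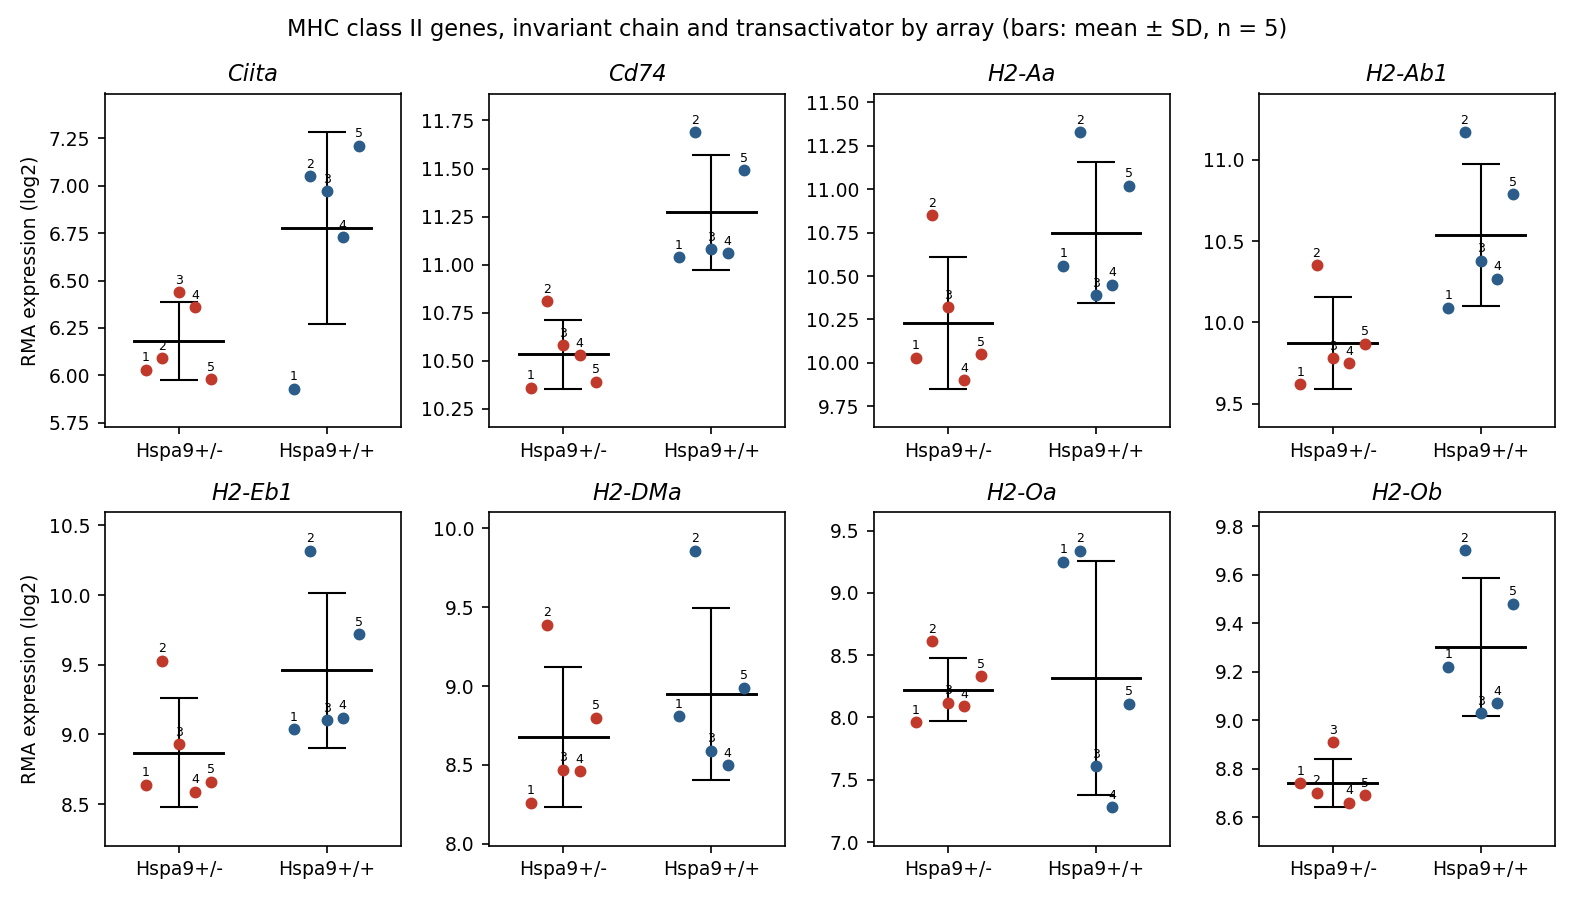
RMA expression (log2 units) of the 8 measured members, 1 panel each with its own axis, in Hspa9+/- (red, left) and Hspa9+/+ (blue, right) arrays numbered by replicate, with bars for the mean and SD. The 2 genotypes separate fully for Cd74 and H2-Ob, and heterozygous 2 is the high red point for the classical chains.

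Ciita, the master regulator of class II transcription (probe set 10433507), was lower in heterozygous cells with 1 wild type array as an exception. It measured 6.03, 6.09, 6.44, 6.36 and 5.98 in heterozygous arrays, against 5.93, 7.05, 6.97, 6.73 and 7.21 in wild type arrays. Wild type 1 lay below all 5 heterozygous arrays, and the other wild type arrays lay above all of them. The difference was -0.60 (SE 0.219, adjusted p = 0.384), or 66.0% of the wild type level (95% interval 47.3 to 92.1%). The exact permutation test of this gene alone gave p = 0.0556. The difference was -0.81 without wild type 1 (adjusted p = 0.0645) and -0.49 without wild type 5 (adjusted p = 0.53).

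Promoters of members are shown because Ciita is known to act through 2 boxes in class II promoters. A link between these boxes and the members' differences was not tested. RefSeq windows of GRCm38.p6, from 250 bases before to 50 after the gene start, were matched by symbol for 7 of the 10 genes, as 8 windows. No window was available for Cd74, Ciita and H2-Ab1. They were searched on both strands for the X box consensus with at most 1 mismatch, for the Y box core ATTGG, and for the CREB palindrome TGACGTCA. None of the matches marked overlaps another. Of 32851 such windows in the RefSeq table, 0.712% held the X box, 37.4% held ATTGG and 1.79% held TGACGTCA. Capitals mark the matches.
H2-Eb1 promoter, chr17:34305617-34305916, plus strand: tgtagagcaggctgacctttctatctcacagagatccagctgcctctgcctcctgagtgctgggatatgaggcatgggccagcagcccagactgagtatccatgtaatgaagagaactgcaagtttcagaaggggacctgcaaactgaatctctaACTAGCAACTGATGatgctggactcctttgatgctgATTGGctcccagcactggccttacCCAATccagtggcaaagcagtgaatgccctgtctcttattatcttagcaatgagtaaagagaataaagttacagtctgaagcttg
H2-Ob promoter, chr17:34238655-34238954, plus strand: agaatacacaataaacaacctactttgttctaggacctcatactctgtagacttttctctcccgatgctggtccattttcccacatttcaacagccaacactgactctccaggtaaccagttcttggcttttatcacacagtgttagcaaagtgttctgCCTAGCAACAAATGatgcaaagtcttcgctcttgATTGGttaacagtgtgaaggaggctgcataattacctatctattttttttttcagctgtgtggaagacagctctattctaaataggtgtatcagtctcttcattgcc
H2-Aa promoter, chr17:34287774-34288073, minus strand: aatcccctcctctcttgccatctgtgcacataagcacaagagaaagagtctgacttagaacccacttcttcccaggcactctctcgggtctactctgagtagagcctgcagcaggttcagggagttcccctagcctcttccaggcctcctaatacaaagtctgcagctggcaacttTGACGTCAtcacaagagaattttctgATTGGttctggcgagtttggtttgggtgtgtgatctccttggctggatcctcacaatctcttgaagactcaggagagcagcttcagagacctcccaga
H2-Oa promoter, chr17:34092129-34092428, plus strand: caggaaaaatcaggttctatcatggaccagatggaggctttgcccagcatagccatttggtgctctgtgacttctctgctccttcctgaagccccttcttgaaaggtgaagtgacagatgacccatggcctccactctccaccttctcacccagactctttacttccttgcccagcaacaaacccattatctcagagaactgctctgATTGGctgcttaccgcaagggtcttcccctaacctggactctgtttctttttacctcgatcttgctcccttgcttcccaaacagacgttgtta

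In H2-Eb1 the X box match began at -95 and ATTGG at -59, and in H2-Ob they began at -91 and -57, counted from the gene start. H2-Eb1 also held ATTGG on the other strand, at -35. An X box with ATTGG starting 25 to 45 bases after it, on the gene's strand, stood in 8 of the 32851 windows (0.0244%). Of those 8, 4 belonged to members, namely H2-Eb1, H2-Ob, H2-DMb1 and H2-DMb2. These boxes are defined as boxes of class II promoters, so matches in members are no independent finding. H2-Aa held TGACGTCA at -74 and ATTGG at -48, and H2-Oa held ATTGG at -43 alone. Of the 2 windows of H2-DMa, 1 held ATTGG, at -198, and 1 held none of these motifs. A match describes the letters in the window and was not tested as a binding site. An X box that differs from the consensus by more than 1 base goes unmarked, so a missing match does not show a missing box.

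The loading genes differed among themselves. H2-Ob, the beta chain of H2-DO (probe set 10444284), measured 8.74, 8.70, 8.91, 8.66 and 8.69 in heterozygous arrays, against 9.22, 9.70, 9.03, 9.07 and 9.48 in wild type arrays. With Cd74 it was 1 of the 2 members, of 8, whose heterozygous arrays all lay below all wild type arrays, as did 0.809% of all genes, and no member showed the reverse, as 1.47% of all genes did. Its difference was -0.56 (SE 0.135, adjusted p = 0.345, exact p = 0.00794 for this gene alone), and its heterozygous arrays spread little, with an SD of 0.0985 against 0.285 in wild type.

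H2-Oa, the alpha chain of the same heterodimer (probe set 10444223), showed no direction that held. It measured 7.96, 8.61, 8.12, 8.09 and 8.33 in heterozygous arrays, against 9.25, 9.34, 7.61, 7.28 and 8.11 in wild type arrays. Wild type arrays 1 and 2 lay above every heterozygous array, and wild type arrays 3 and 4 lay below every one. The difference was -0.09 (95% interval -0.93 to 0.74, adjusted p = 0.924), and 0.14 without wild type 1 or 0.16 without wild type 2. The macrophage markers were also highest in these 2 wild type arrays, at 8.80 and 7.17, and lowest in wild type 4, at 5.24. Their part in the H2-Oa values was not tested beyond the fit with their mean as a covariate, where the difference was -0.44 (adjusted p = 0.39).

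H2-DMa, the alpha chain of the peptide exchanger H2-DM (probe set 10444229), measured 8.26, 9.39, 8.47, 8.46 and 8.80 in heterozygous arrays, against 8.81, 9.86, 8.59, 8.50 and 8.99 in wild type arrays. The ranges overlapped broadly and the difference was -0.28 (SE 0.276, adjusted p = 0.671). It was -0.05 without wild type 2. The probe set annotated to both H2-DMb1 and H2-DMb2, the H2-DM beta chains, belongs to neither gene under the rule and is given as that probe set only (10444236). It measured 7.83, 8.46, 8.16, 8.07 and 8.0 in heterozygous arrays, against 8.47, 9.72, 8.56, 8.49 and 9.09 in wild type arrays, with no overlap and a difference of -0.76 (SE 0.236, adjusted p = 0.348).

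**Figure D2:**
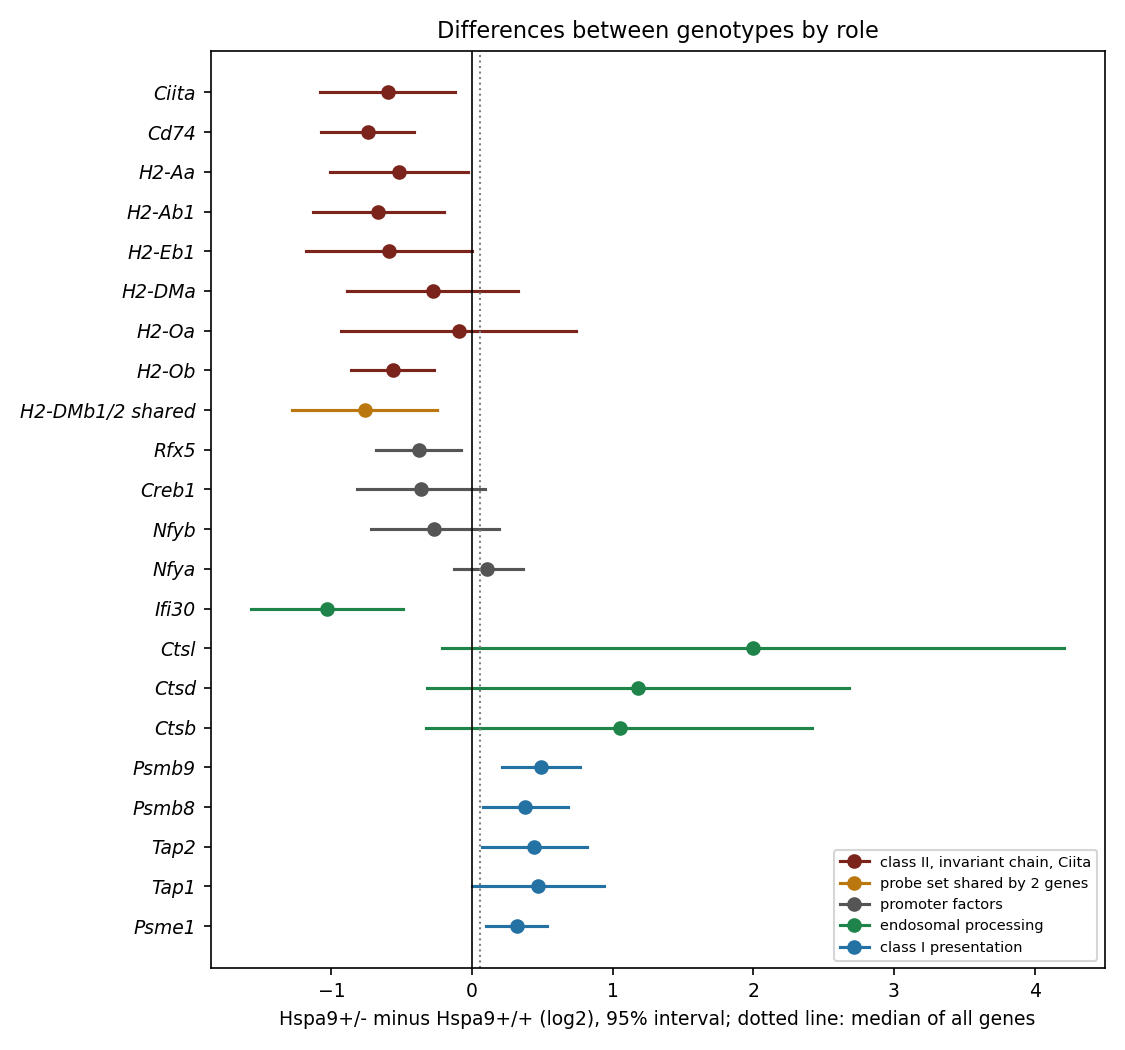
Heterozygous minus wild type differences (log2, points) with 95% intervals from limma (lines) for the members, the shared H2-DMb probe set and named genes of 3 related lists. The members' points lie left of 0 while those of the 5 class I presentation genes drawn lie right of it, and the cathepsin intervals are the widest.

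Within each genotype the classical chains, Cd74 and H2-DMa shared their highest arrays, and the other members did so in part. Wild type 2 was the highest wild type array for 7 of 8 members and wild type 5 was among the top 2 for 7 of 8, while heterozygous 2 was the highest heterozygous array for 6 of 8. Over the 10 arrays, deviations from the genotype mean had a Pearson r with the mean of the other classical genes and Cd74 of 0.992 for H2-Eb1, 0.96 for Cd74, 0.951 for H2-Aa, 0.946 for H2-Ab1 and 0.908 for H2-DMa. The values were lower for H2-Ob at 0.74, H2-Oa at 0.509 and Ciita at 0.444. These are descriptions over arrays that also share their cell makeup, and Ciita did not follow the chains in every array. Heterozygous 2, high in the chains, deviated by 0.66 in H2-Eb1 and by -0.09 in Ciita, and wild type 1 deviated by -0.42 in H2-Eb1 and by -0.85 in Ciita.

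**Figure D3:**
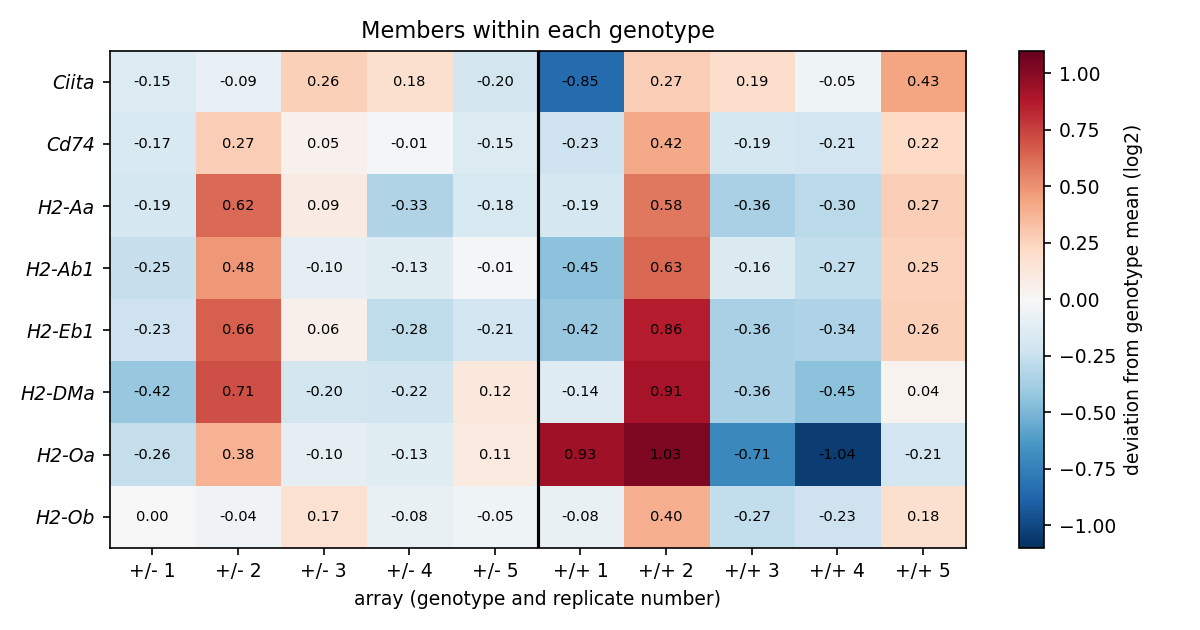
Deviation of each member from the mean of its genotype (log2, colour and printed value) for 5 heterozygous and 5 wild type arrays. Heterozygous 2 and wild type 2 are high in the classical chains and H2-DMa, and Ciita is low in wild type 1.

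Genes outside the members were ranked by likeness to the mean of Cd74, H2-Aa, H2-Ab1 and H2-Eb1 over the 10 arrays. Predicted genes, immunoglobulin and T cell receptor segments and some other symbol classes were left out of the ranking. Highest were Cnn2 (a calponin, r = 0.958), Myl12b (a myosin regulatory light chain, r = 0.952), Gucd1 (r = 0.945), Ccdc180 (r = 0.934) and Cd2 (a lymphocyte adhesion receptor, r = 0.933). The mean itself was 9.88 ± 0.299 in heterozygous and 10.51 ± 0.42 in wild type arrays (SD). With each genotype's mean taken out, the list was Ccdc180 (r = 0.978), Cnn2 (0.932), Myl12b (0.924), Commd1 (0.921) and the receptor Pdgfrb (0.919). Commd1 and Pdgfrb had differences near 0, at 0.06 (SE 0.111) and 0.05 (SE 0.114), and Pdgfrb was dim, at 4.82 to 5.35. All these genes were picked as the highest correlations of the genes ranked, over only 10 arrays. Such picks can reach a high r without any link, so they do not show that a gene follows class II.

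Of the factors that bind class II promoters, 1 of 7 had an unadjusted p under 0.05, against 11% of all genes. Rfx5, the RFX subunit that gives the X box complex its DNA-binding domain, averaged 6.15 ± 0.224 in heterozygous and 6.54 ± 0.203 in wild type arrays (SD), a difference of -0.38 (SE 0.135, adjusted p = 0.382). Creb1 was at -0.36 (SE 0.206), and the NF-Y subunits Nfyb and Nfya were at -0.27 (SE 0.207) and 0.11 (SE 0.111). The list median was -0.04.

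Among 11 measured regulators of Ciita and interferon gamma signalling components, the median was -0.27. At an unadjusted p under 0.05, 1 was lower and 1 higher, against 4.25% and 6.79% of all genes. Prdm1, the repressor that shuts Ciita off as plasma cells form, measured 4.97, 5.00, 5.12, 5.12 and 4.82 in heterozygous arrays, against 5.40, 5.34, 5.74, 5.83 and 6.35 in wild type arrays. This repressor was lower in heterozygous arrays, without overlap, at -0.73 (SE 0.176, adjusted p = 0.345). It was dim, with every heterozygous value below the lowest array median of 5.38. Irf8, an interferon regulatory factor of B cells and dendritic cells, was at 0.40 (SE 0.175), Irf4 at -0.39 (SE 0.219) and Irf1 at 0.23 (SE 0.159), each with an adjusted p above 0.4.

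The endosomal processing genes did not follow the class II chains as a list, with a median of 0.30 over 11 genes. At an unadjusted p under 0.05, 4.25% of all genes were lower, and 1 of these 11 was. That gene was Ifi30, the thiol reductase GILT that unfolds antigens in lysosomes, at 9.32, 9.41, 9.29, 9.63 and 9.49 in heterozygous arrays, against 9.60, 10.78, 10.30, 10.39 and 11.20 in wild type arrays. Only heterozygous 4 lay above the lowest wild type array, and the difference was -1.03 (SE 0.244, adjusted p = 0.345), which passed without wild type 1 at -1.24 (adjusted p = 0.0327). The cathepsins Ctsl, Ctsd and Ctsb, lysosomal proteases abundant in macrophages, were at 2.00 (SE 1), 1.18 (SE 0.681) and 1.05 (SE 0.626). Their values tracked the 2 arrays high in macrophage markers, with Ctsl at 11.38 in heterozygous 2 and 10.73 in wild type 1, against 8.62 to 9.17 in the other heterozygous arrays and 5.31 to 9.03 in the other wild type arrays. The part of macrophages in these values was not tested beyond the marker covariates given at the end.

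Class I presentation genes had a median difference of 0.28. Of 14 measured genes 6 were higher and 0 lower at an unadjusted p under 0.05, against 6.79% and 4.25% of all genes. None passed the adjusted threshold, and 3 had a difference below 0. Psmb9, an immunoproteasome subunit encoded among the class II genes, measured 11.52, 11.48, 11.57, 11.61 and 11.73 in heterozygous arrays, against 11.21, 11.49, 11.03, 10.85 and 10.88 in wild type arrays. Only wild type 2 reached the heterozygous range, and the difference was 0.49 (SE 0.128, adjusted p = 0.345). Psme1, of the proteasome activator, was at 0.32 (SE 0.0984), and Psmb8, another immunoproteasome subunit, was at 0.38 (SE 0.137).

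Neighbouring genes of the class II region differed in direction. In the gene order of chromosome 17, the members run H2-Oa, H2-DMa, H2-DMb2, H2-DMb1, then H2-Ob, H2-Ab1, H2-Aa and H2-Eb1, and the class I genes Psmb9, Tap1, Psmb8 and Tap2 lie between H2-DMb1 and H2-Ob. The peptide transporter genes Tap1 and Tap2 were at 0.47 (SE 0.215) and 0.44 (SE 0.17), while H2-Ob next to Tap2 was at -0.56 (SE 0.135). Of the 7 measured neighbours that are not members, 3 were higher and 0 lower at an unadjusted p under 0.05, against 6.79% and 4.25% of all genes. The 3, Psmb9, Psmb8 and Tap2, were already counted among the class I genes. Cd74 lies on chromosome 18, as does Hspa9, and Ciita on chromosome 16.

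Genes of later B cell stages were lower alongside class II. Of 8 measured, 6 were lower and 0 higher at an unadjusted p under 0.05, against 4.25% and 6.79% of all genes. The median was -0.88, and all heterozygous list means (7.24 to 7.70) lay below all wild type list means (8.09 to 8.81). The list was chosen with earlier results of these samples known, so its direction is not independent evidence. Cd55, a complement regulator, was at -1.82 (SE 0.291), the CD20 gene Ms4a1 was at -1.57 (SE 0.312), the egress receptor S1pr1 at -0.95 (SE 0.149) and the BAFF receptor Tnfrsf13c at -0.81 (SE 0.186), with adjusted p from 0.111 to 0.324.

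Cell surface CD74 also serves as the receptor for the cytokine MIF together with other receptors. Mif was at 0.25 (SE 0.103), with 12.81, 12.52, 12.67, 12.90 and 12.87 in heterozygous arrays, against 12.31, 12.61, 12.58, 12.54 and 12.50 in wild type arrays. Its coreceptor Cxcr4, the receptor that holds B precursors in the marrow, was at -0.57 (SE 0.128, adjusted p = 0.297) with no overlap. Cd44 averaged 7.05 in heterozygous and 7.04 in wild type arrays, and Cxcr2 was below the filter.

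Markers of other cells that carry class II had higher means in the heterozygous samples, the reverse of the members. Macrophage markers had 0 of 12 at an unadjusted p under 0.05 and a list mean of 6.58 to 9.28 in heterozygous and 5.24 to 8.80 in wild type arrays. Conventional dendritic cell markers had 2 of 6 higher at that level, against 6.79% of all genes. Both were dim, Zbtb46 averaging 5.50 in heterozygous and 5.19 in wild type arrays and Cd209a 5.32 and 5.06. Itgax was highest in heterozygous 2 (8.87) and wild type 1 (8.31), the arrays high in macrophage markers. List means were 5.67 to 6.34 in heterozygous and 5.15 to 5.93 in wild type arrays, and Clec9a, Xcr1, Clec10a and Cd207 lay below the filter. Whether conventional dendritic cells were present was not tested. Plasmacytoid dendritic cell markers had 4 of 5 higher at an unadjusted p under 0.05, against 6.79% of all genes. Their list means were 7.15 to 8.64 in heterozygous and 6.01 to 7.42 in wild type arrays.

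**Figure D4:**
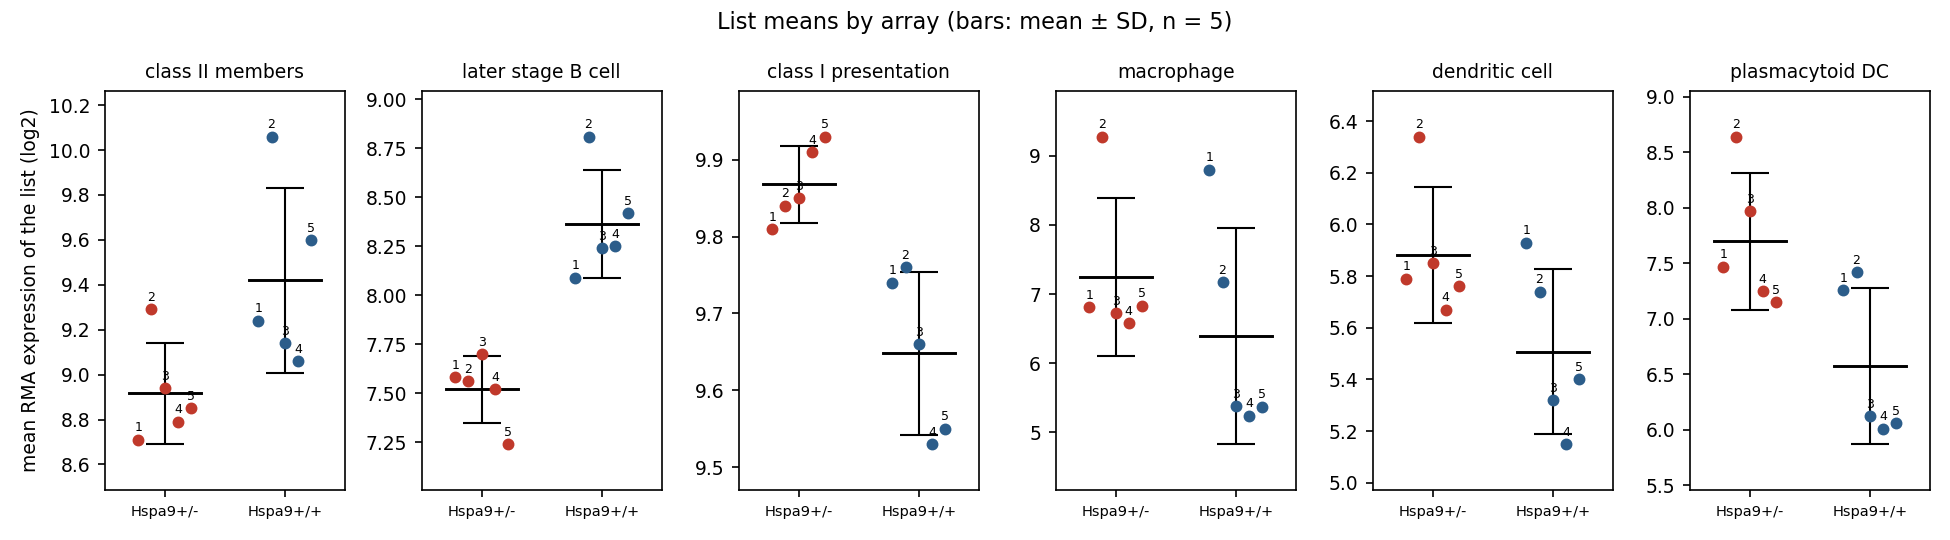
Mean RMA expression (log2 units) of 6 gene lists in Hspa9+/- (red, left) and Hspa9+/+ (blue, right) arrays numbered by replicate, with bars for the mean and SD. Class II and later B cell lists have lower heterozygous means while the class I, macrophage, dendritic and plasmacytoid dendritic cell lists have higher ones. The class II list overlaps, at 8.71 to 9.29 in heterozygous and 9.06 to 10.06 in wild type arrays.

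With these markers in the fit, each of the 8 members stayed below 0. The macrophage mean as a covariate gave -0.78 for Cd74, -0.71 for H2-Ab1 and -0.45 for Ciita, the dendritic cell mean gave -0.87, -0.84 and -0.37, and the plasmacytoid dendritic cell mean gave -0.96, -0.94 and -0.41. None of these passed (adjusted p from 0.0661 to 0.523). The classical chains thus moved further from 0 and Ciita moved nearer to it. The marker means themselves differed between genotypes, by 0.85 (macrophage), 0.37 (dendritic cell) and 1.12 (plasmacytoid dendritic cell). These fits therefore cannot fully separate markers from genotype, and the part of other cells was not tested further. Without both heterozygous 2 and wild type 1, Cd74 was at -0.86 (adjusted p = 0.0667), H2-Ab1 at -0.90 (0.088), H2-Eb1 at -0.86 (0.198), Ciita at -0.79 (0.073) and H2-Ob at -0.57 (0.182). The genotypes of 6 of the 8 members did not overlap there. Fewer arrays separate more easily, and the share of all genes was not counted for this fit.

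**Figure D5:**
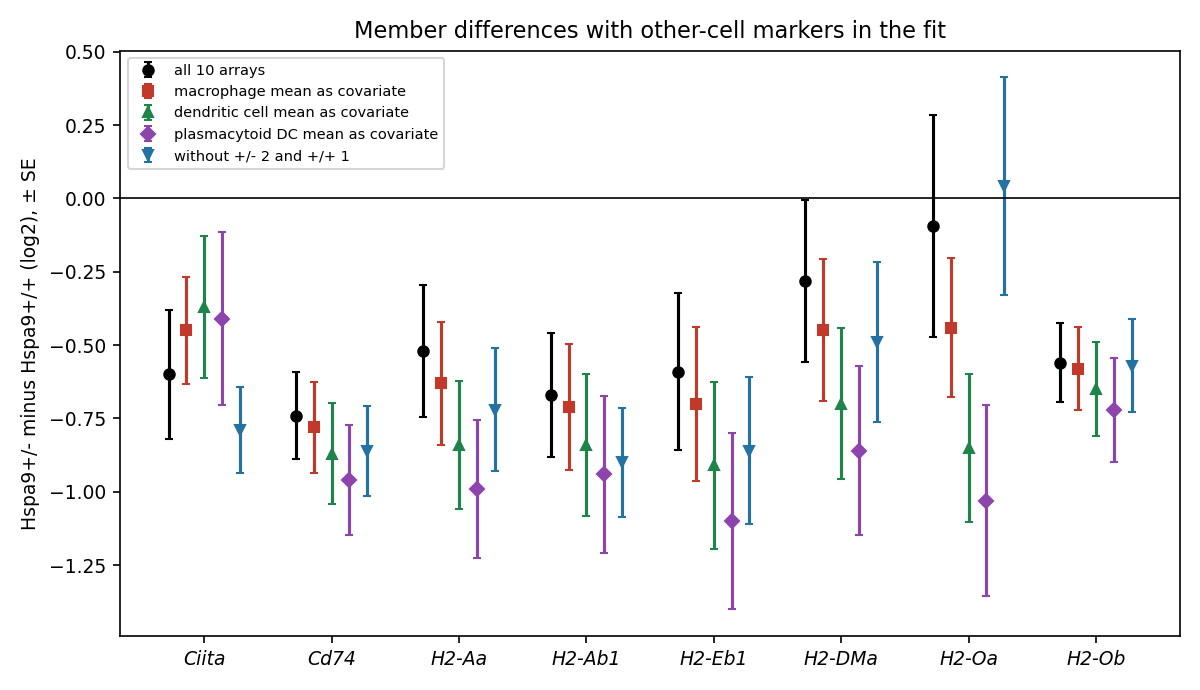
Heterozygous minus wild type difference (log2, ± SE) of each member with all 10 arrays, with the mean of 1 marker list as a covariate, or without heterozygous 2 and wild type 1. H2-Oa is the member that moves most, between -1.03 and 0.04.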

How the data were processed

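Sorted B220+ cells of 7-day colonies were measured on 1 array per mouse, 5 heterozygous and 5 wild type. The deposited log2 values are gene-level RMA made by the authors in Affymetrix Expression Console, per the labels and the submitters' processing notes; versions, build and annotation are not given in the sources used here. The method normalizes arrays to a shared distribution, so a shift common to most genes is largely removed. Array medians ran from 5.38 to 5.49, and the number of arrays limits the precision.

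Of 35556 probe sets, 21789 had 1 symbol in the platform annotation, 1621 had several and 12146 were unlisted. The probe set of highest mean was kept per symbol, and rows at or below the 25th percentile (4.52) were dropped, so that 14953 genes remained. The genotype contrast was fitted in R 4.3.3 using lmFit and eBayes of limma 3.58.1, adjusted by Benjamini-Hochberg over all genes, and single genes were also compared by exact permutation, two-sided, over 252 splits. The fit was tested on simulated data. The members and gene lists were chosen with earlier results of these data known. The lists cover class II promoter factors, Ciita regulators, endosomal processing, CD74 ligand and coreceptors, class II region neighbours, class I presentation, B cell costimulation, later stage B cells, and markers of B lineage, macrophage, dendritic, plasmacytoid dendritic and neutrophil cells. Named were all members, Hspa9 and the 4 genes of smallest p per list other than the marker lists. Also named were the 5 genes most like the classical chains and Cd74 by each of 2 measures. That ranking left out predicted genes, immunoglobulin and T cell receptor segments and some other symbol classes. H2-Ea, Cxcr2, Zbtb46, Cd209a, Itgax and markers below the filter were named after their values were seen. Alternatives were other filters, normalizations and variance models, marker covariates, the replicate block and arrays left out.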

Additional observations from a re-analysis of the deposited data

Results flagged for a closer look

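Heterozygous 2 lay far from the other heterozygous arrays in 3 marker lists. Its mean was 9.28 for macrophage, 6.34 for dendritic cell and 7.68 for neutrophil markers, where the other heterozygous arrays reached at most 6.83, 5.85 and 6.18. Its gap to the nearest array took up more of the group's range than Dixon's critical value of 0.71 for 5 samples allows. Chance flags about 1 group in 20, and 30 groups were checked, none of the members' own groups among the 3 that stood out.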

How the results depend on the processing

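Of the 8 members, 7 kept a negative difference in all 22 alternatives, and none passed in any except Cd74 with array weights (-0.72, adjusted p = 0.0312). H2-Oa turned to 0.21 with array weights and 0.042 without wild type 1 and heterozygous 2, and ran from -0.35 to 0.16 without 1 array; 2 wild type arrays set its direction. The number of members at an unadjusted p under 0.05 ran from 3 to 6 without 1 array, and of members without overlap from 2 to 5, with 6 without wild type 1 and heterozygous 2. With arrays left out, the share of all genes without overlap was not counted. Genes past the adjusted threshold were 137 with array weights, 33 and 1 with the dendritic and plasmacytoid dendritic cell covariates, 26 without wild type 1 and heterozygous 2, and 0 to 22 without 1 array. Genes at an unadjusted p under 0.05 were 1024 above the median row, 3077 with array weights, 2545 with the dendritic cell covariate and 1047 to 2247 without 1 array. The causes were not tested.

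Replicate numbers did not pair the arrays over all genes: same-numbered deviations correlated from -0.528 to 0.534. Over the members alone they correlated from -0.826 to 0.742. With the replicate block 0 genes passed, 1340 had an unadjusted p under 0.05, 6 members did so, and Cd74 was at -0.74 (adjusted p = 0.501). The block lowered the SE of every member except H2-Ob (0.135 to 0.146). For H2-Ab1 the SE went from 0.21 to 0.111, and for H2-Eb1 from 0.269 to 0.147.

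Other directions turned with the covariates. The dendritic cell mean gave 0.11 for Nfyb, -0.24 for Ctsl, -0.30 for Ctsd, -0.35 for Ctsb, -0.33 for Cd44, -0.03 for Cd80, -0.028 for Commd1 and -0.078 for Pdgfrb. The plasmacytoid dendritic cell mean gave 0.13 for Nfyb, -0.0076 for Irf1, -0.84 for Ctsl, -0.66 for Ctsd, -0.68 for Ctsb, -0.42 for Cd44, -0.032 for Cd80, -0.085 for Commd1 and -0.14 for Pdgfrb, and the macrophage mean -0.17 for Cd44 and -0.0075 for Cd80. Without wild type 1 and heterozygous 2, Cd44 was at -0.09, Cd80 at -0.042, Commd1 at -0.016 and Pdgfrb at -0.0037. Array weights gave -0.012 for Cd44 and -0.02 for Cd80, quantile normalization -0.099 for Cd80 and -0.052 for Pdgfrb, and cyclic loess -0.097 and -0.045. Without 1 array Cd44 ran from -0.20 to 0.13 and Cd80 from -0.048 to 0.07.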

Other observations

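Costimulation genes, which B cells use beside class II when they present antigen, were mostly near background. Cd40, the receptor for T cell help, measured 6.51, 6.45, 6.93, 6.79 and 6.91 in heterozygous arrays, against 6.91, 8.46, 6.80, 6.93 and 7.80 in wild type arrays. Wild type 2 and wild type 5, which were also high in class II, set the wild type mean, and the difference was -0.66 (SE 0.298, adjusted p = 0.449) or -0.39 without wild type 2. Cd80 and Icosl were dim, averaging 4.79 and 4.81 in heterozygous and 4.78 and 4.69 in wild type arrays, and Cd86 lay below the filter.

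Neutrophil markers had 0 of 10 genes at an unadjusted p under 0.05, with list means of 5.60 to 7.68 in heterozygous and 5.10 to 6.99 in wild type arrays.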
